A study of Homo sapiens with 9 samples.

Results

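The genes described here are 29 that make, sense, take up or export cholesterol: 18 enzymes of synthesis, 5 controllers of the sterol-regulated transcription factors, 4 genes of uptake and intracellular transport and 2 exporters. They were named in a list and found by symbol among the 60675 Ensembl gene IDs of the count tables, and all 29 were among the 19278 genes tested. They were measured by bulk RNA sequencing in LNCaP:C4-2, an established castration-resistant and enzalutamide-sensitive prostate cancer cell line. The 9 libraries comprised 3 shScramble libraries (a hairpin that targets no gene), 3 shMETTL3 guide 2 libraries and 3 libraries labelled shMETTL3 guide 1, the hairpins of the last groups being directed at METTL3, the catalytic subunit of the RNA m6A methyltransferase. All 9 shared the rest of the treatment: lentiviral transduction of a doxycycline-inducible hairpin construct, puromycin selection for stable integration, phenol red-free medium with charcoal-stripped serum, and doxycycline at 1 µg/ml for 6 days, although the sample titles also carry the word vehicle. The study's methods describe selected stable clones without giving their number, and no label says that the 3 libraries of a group came from separate cultures, so the p-values below measure the spread between these libraries.

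Cholesterol is built from acetyl-CoA through mevalonate, farnesyl diphosphate, squalene and lanosterol. When membrane sterol in the endoplasmic reticulum is low, SCAP carries the SREBP transcription factors (encoded by SREBF1 and SREBF2) to the Golgi, where they are cut and released to raise transcription of nearly every enzyme of the pathway, while INSIG proteins hold them back when sterol is plentiful. Oxysterols act in the opposite direction through LXR receptors, which raise the exporters ABCA1 and ABCG1. Prostate cancer cells are known for high sterol and fatty acid synthesis, and cholesterol is also the precursor from which steroid hormones are made.

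RefSeq promoter windows (GRCh38.p14, 250 bases before to 50 bases after the annotated start) were held for 24 of the 29 genes and 5 are printed. SREBF2 is printed as the sole window of a called gene with the core of the sterol regulatory element, TCACNCCAC. The other 4 were chosen after the expression values were seen, and only from windows that hold CCAAT, a box described below. Among members with such a window, INSIG1, EBP and DHCR7, which catalyses the final reduction to cholesterol, had the largest rises with guide 2. TM7SF2 had the value nearest to 0 with guide 2 (log2 fold change -0.0023 against shScramble). It was the single enzyme lowered in the libraries labelled guide 1. Each window is written 5′ to 3′ on the strand of its gene, and the RefSeq starts of all 5 lie inside the gene intervals that the count tables give. Capitals mark matches to TCACNCCAC and to CCAAT, the box bound by NF-Y, a factor that acts beside SREBP, and on the opposite strand CCAAT reads ATTGG.
SREBF2 (chr22:41832855-41833154, plus strand): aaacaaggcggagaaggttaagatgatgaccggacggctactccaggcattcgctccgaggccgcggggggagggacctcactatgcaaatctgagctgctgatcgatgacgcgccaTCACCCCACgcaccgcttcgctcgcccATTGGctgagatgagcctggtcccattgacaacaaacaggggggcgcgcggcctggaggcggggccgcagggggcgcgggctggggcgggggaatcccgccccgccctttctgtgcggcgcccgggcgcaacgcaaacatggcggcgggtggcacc
INSIG1 (chr7:155297628-155297927, plus strand): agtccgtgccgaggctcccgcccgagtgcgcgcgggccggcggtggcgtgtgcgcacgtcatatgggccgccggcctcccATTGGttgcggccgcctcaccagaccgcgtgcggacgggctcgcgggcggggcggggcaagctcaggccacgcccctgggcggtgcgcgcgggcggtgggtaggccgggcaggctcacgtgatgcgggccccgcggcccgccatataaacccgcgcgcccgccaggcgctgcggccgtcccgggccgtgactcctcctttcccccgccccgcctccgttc
EBP (chrX:48521558-48521857, plus strand): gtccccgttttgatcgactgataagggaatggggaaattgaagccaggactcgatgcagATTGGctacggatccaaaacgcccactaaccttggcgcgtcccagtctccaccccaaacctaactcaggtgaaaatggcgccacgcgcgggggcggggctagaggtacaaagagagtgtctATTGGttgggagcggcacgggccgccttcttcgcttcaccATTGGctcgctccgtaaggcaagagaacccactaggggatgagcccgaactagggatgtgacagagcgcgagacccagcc
DHCR7 (chr11:71448344-71448643, minus strand): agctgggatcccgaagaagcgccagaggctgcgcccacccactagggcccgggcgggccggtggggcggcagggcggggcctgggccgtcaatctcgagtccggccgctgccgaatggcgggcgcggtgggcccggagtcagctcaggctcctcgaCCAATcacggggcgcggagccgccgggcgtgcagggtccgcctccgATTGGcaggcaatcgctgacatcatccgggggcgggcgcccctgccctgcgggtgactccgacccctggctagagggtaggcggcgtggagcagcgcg
TM7SF2 (chr11:65111622-65111921, plus strand): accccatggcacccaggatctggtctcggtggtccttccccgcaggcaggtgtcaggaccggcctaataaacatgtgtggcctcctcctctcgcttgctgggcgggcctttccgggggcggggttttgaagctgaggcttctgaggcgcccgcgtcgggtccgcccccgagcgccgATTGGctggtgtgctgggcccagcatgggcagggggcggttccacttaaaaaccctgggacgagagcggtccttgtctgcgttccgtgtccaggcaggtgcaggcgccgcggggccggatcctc

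Total counts ranged from 21899501 to 30897639 per library. Levels below are in CPM, reads scaled to the depth of the library and by TMM factors, which set the bulk of genes equal between libraries. METTL3 was at 29.8, 31.7 and 32.99 CPM in the shScramble libraries, 16.6, 16.6 and 15.8 CPM with guide 2 and 29.4, 30.1 and 29.6 CPM in the libraries labelled guide 1. METTL3 fell 1.93-fold with guide 2 (log2 fold change -0.95 ± 0.069 SE, adjusted p = 2.97e-12), whereas in the libraries labelled guide 1 its level overlapped that of shScramble (log2 fold change -0.083 ± 0.063 SE, adjusted p = 0.251). The guide 1 libraries are for this reason called by their label throughout. The 7 luminal prostate markers summed to 2050 to 2074 CPM in shScramble, 2207 to 2349 CPM with guide 2 and 1021 to 1057 CPM in the libraries labelled guide 1, and FOLH1, HOXB13, KRT8 and KRT18 were each lower in that last group. The 3 basal markers were at or under a floor of 3 counts in every library, as were 3 of the 4 markers of other cells. COL1A1 was the exception, at 43.5 ± 1.96, 35.3 ± 1.86 and 21.1 ± 3.11 CPM (mean ± SD, n = 3 each, shScramble, guide 2 and labelled guide 1). The part of these marker differences in the results below was not tested.

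With guide 2, 14 of the 29 cholesterol genes were raised and 1 was lowered, where a call needed an adjusted p under 0.05 in edgeR's quasi-likelihood test and at least a 1.5-fold change. Of all genes tested, 8.85% were raised and 20.4% were lowered by that rule. The members were well expressed, and among the 11794 genes at or above the lowest member's mean of 5.00 CPM the shares were 10.1% raised and 9.22% lowered. The fitted value was above 0 for 26 of the 29 members, with a median log2 fold change of 0.54 against -0.04 over all genes tested and 0.10 over genes in that range. The raised genes were 9 of the 18 synthesis enzymes, 3 of the 5 controllers and 2 of the 4 uptake and transport genes, and the lowered gene was the exporter ABCA1. A further 10 members passed the p limit at under 1.5-fold, all of them higher with guide 2, where by the p limit alone 30.0% of all genes tested were higher and 31.7% lower. In 23 members all 3 guide 2 libraries lay above all 3 shScramble libraries, and in 2 they lay below, against 32.5% and 34.1% of all genes tested. The fold limit and the scaling moved the count. By adjusted p alone 24 members were raised. With scaling by library size alone 8 were raised and 1 was lowered, beside 5.25% and 25.2% of all genes, and with the test itself set against 1.5-fold 9 were raised and none was lowered, beside 4.62% and 12.3%.

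In the libraries labelled guide 1, 2 members were raised and 3 were lowered, beside 21.2% and 16.5% of all genes tested. The median log2 fold change of the members was -0.20 against -0.02 over all genes, and 12 of 29 values were above 0. The raised genes were ACAT2 and SQLE, and the lowered ones were TM7SF2, ABCA1 and ABCG1. By adjusted p alone 10 members were higher and 14 lower, beside 35.4% and 33.0% of all genes. Both comparisons use the same 3 shScramble libraries.

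Guide 2 was also compared directly with the libraries labelled guide 1, a test with no shScramble library in the contrast. The test uses the same hairpin libraries as the comparisons with shScramble, so its counts are not independent of theirs. In it 14 members were higher with guide 2 and 1, SQLE, was lower, beside 19.1% and 28.2% of all genes tested, with a median log2 difference of 0.46 against -0.06 over all genes. By adjusted p alone 23 were higher and 3 lower, beside 34.7% and 39.9%. The 9 members that were raised with guide 2, not called in the libraries labelled guide 1 and higher in the direct test were IDI1, FDFT1, CYP51A1, MSMO1, EBP, DHCR7, SREBF1, SREBF2 and INSIG1. LSS, SCARB1 and STARD4 were raised with guide 2 without a call in the direct test, and HMGCS1, MVK and MYLIP were called in the direct test alone. PMVK, MVD, FDPS, NSDHL, HSD17B7, SC5D, SCAP, INSIG2 and NPC1 were called in none of the 3 comparisons.

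**Figure D1:**
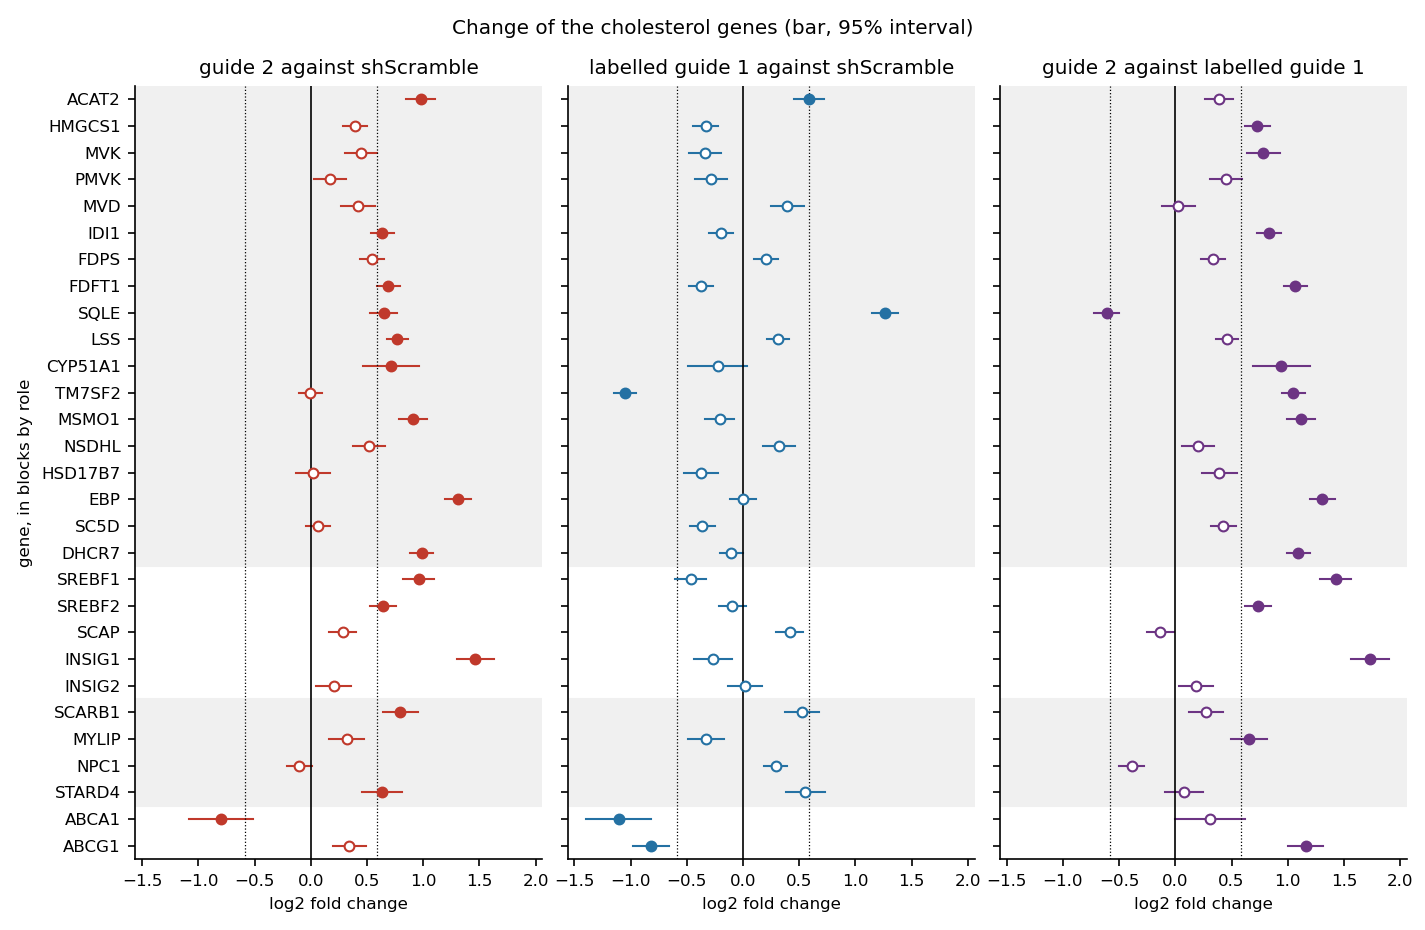
Log2 fold change of each of the 29 genes (rows, in blocks by role) for guide 2 against shScramble, labelled guide 1 against shScramble and guide 2 against labelled guide 1, with 95% intervals. Filled points were called and dotted lines mark 1.5-fold. The 14 raised genes of the left panel lie to the right of the upper line, ABCA1 lies to the left of the lower line, and the middle panel has 5 filled points.

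The first steps, from acetyl-CoA to farnesyl diphosphate, had 2 of 7 enzymes raised with guide 2, ACAT2 and IDI1, and a median log2 fold change of 0.44. ACAT2, the cytosolic thiolase that joins acetyl-CoA units, was at 21.7, 19.7 and 21.2 CPM in the shScramble libraries, 39.97, 41.8 and 41.4 CPM with guide 2 and 30.1, 32.4 and 31.7 CPM in the libraries labelled guide 1. ACAT2 rose 1.97-fold with guide 2 (log2 fold change 0.98 ± 0.064 SE, adjusted p = 3.89e-13) and 1.504-fold in the libraries labelled guide 1 (log2 fold change 0.59 ± 0.064 SE, adjusted p = 4.70e-09), with no overlap between any of the 3 groups. The second of these calls sat at the fold limit and was lost in 6 of the 9 fits that left out 1 library, where the log2 fold change ranged from 0.54 to 0.62. Of the exon bases of ACAT2, 43.0% are shared with a gene on the opposite strand (ENSG00000112096, mean count 2410) and 9.24% with TCP1. The strand setting of the counting was not given in the sources used here, so reads of such pairs cannot be told apart.

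IDI1, the isomerase that makes dimethylallyl diphosphate, was at 50.01, 48.8 and 53.97 CPM in the shScramble libraries, 76.99, 79.7 and 80.5 CPM with guide 2 and 44.8, 43.5 and 44.8 CPM in the libraries labelled guide 1. IDI1 rose 1.55-fold with guide 2 (log2 fold change 0.64 ± 0.052 SE, adjusted p = 2.79e-11) and was -0.20 ± 0.053 on the log2 scale in the libraries labelled guide 1. The 3 groups did not overlap, with guide 2 highest and labelled guide 1 lowest. HMGCS1, which condenses acetyl-CoA with acetoacetyl-CoA, was at 61.3, 66.7 and 70.8 CPM in the shScramble libraries, 87.3, 87.95 and 85.6 CPM with guide 2 and 54.6, 52.05 and 50.8 CPM in the libraries labelled guide 1. MVK, mevalonate kinase, was at 24.7, 23.7 and 24.3 CPM in the shScramble libraries, 32.2, 33.7 and 32.9 CPM with guide 2 and 17.2, 19.9 and 20.3 CPM in the libraries labelled guide 1. Both followed the same order of groups as IDI1, and neither passed 1.5-fold against shScramble in either direction (guide 2 log2 fold changes 0.39 ± 0.053 and 0.44 ± 0.069), yet both were higher with guide 2 than in the libraries labelled guide 1, by 0.73 ± 0.053 (adjusted p = 9.32e-13) and 0.78 ± 0.071 (adjusted p = 7.15e-11). The remaining enzymes of this stretch were not called. Their guide 2 log2 fold changes were 0.17 ± 0.068 for PMVK, 0.42 ± 0.072 for MVD and 0.54 ± 0.052 for FDPS, and in the libraries labelled guide 1 they were -0.28, 0.39 and 0.21. PMVK and MVD are the second kinase and the decarboxylase that turn mevalonate phosphate into isopentenyl diphosphate, and FDPS is farnesyl diphosphate synthase, 18.6% of whose exon bases are shared with RUSC1-AS1.

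All 3 enzymes that lead from farnesyl diphosphate into the sterols, ending at lanosterol, were raised with guide 2, at 1.57- to 1.71-fold. FDFT1, squalene synthase and the first enzyme committed to sterols, was at 152, 159 and 155 CPM in the shScramble libraries, 244, 239.9 and 270.2 CPM with guide 2 and 118, 114 and 127 CPM in the libraries labelled guide 1. FDFT1 rose 1.61-fold with guide 2 (log2 fold change 0.69 ± 0.050 SE, adjusted p = 2.89e-12) and stood at -0.38 ± 0.051 in the libraries labelled guide 1, so its groups lay on either side of shScramble without overlap. LSS, which closes squalene epoxide into lanosterol, was at 74.9, 78.4 and 74.8 CPM in the shScramble libraries, 129.6, 125 and 135 CPM with guide 2 and 93.1, 96.3 and 94.1 CPM in the libraries labelled guide 1. LSS rose 1.71-fold with guide 2 (log2 fold change 0.77 ± 0.046 SE, adjusted p = 7.39e-14), and in the libraries labelled guide 1 it was also above shScramble, by 0.31 ± 0.047 and under the fold limit.

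SQLE, squalene epoxidase and a rate-limiting oxidation of the pathway, was raised in both hairpin groups. It was at 30.6, 31.3 and 31.8 CPM in the shScramble libraries, 47.5, 47.4 and 52.2 CPM with guide 2 and 72.6, 72.6 and 79.3 CPM in the libraries labelled guide 1. SQLE rose 1.57-fold with guide 2 (log2 fold change 0.65 ± 0.058 SE, adjusted p = 2.07e-10) and 2.398-fold in the libraries labelled guide 1 (log2 fold change 1.26 ± 0.056 SE, adjusted p = 2.65e-17), the largest rise of any member there. The 3 groups did not overlap, and SQLE was the single member called lower with guide 2 than in the libraries labelled guide 1 (log2 fold change -0.61 ± 0.055 SE, adjusted p = 7.37e-11). That last call was lost without guide 2 replicate 1, guide 2 replicate 2 or guide 1 replicate 3, where the values were -0.58, -0.58 and -0.565. Per unit of exon length, as TPM (reads scaled to exon length and depth), the ratio of SQLE to LSS was 0.691 ± 0.0226 in shScramble, 0.635 ± 0.0170 with guide 2 and 1.33 ± 0.0772 in the libraries labelled guide 1 (mean ± SD, n = 3 each).

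Of the 8 enzymes that turn lanosterol into cholesterol, 4 were raised with guide 2, and they sit at several points of the stretch. EBP (ENSG00000147155, chrX:48521158-48528716, plus strand of GRCh38 in the count tables, as for all gene positions below), the sterol isomerase that moves the ring double bond, was at 39.6, 43.3 and 42.7 CPM in the shScramble libraries, 97.2, 107 and 107 CPM with guide 2 and 39.9, 42.2 and 43.5 CPM in the libraries labelled guide 1. EBP rose 2.48-fold with guide 2 (log2 fold change 1.31 ± 0.055 SE, adjusted p = 4.03e-17), the largest rise among the enzymes, while in the libraries labelled guide 1 it overlapped shScramble (log2 fold change 0.0024 ± 0.057, 95% interval -0.11 to 0.12). DHCR7 (ENSG00000172893, chr11:71428193-71452868, minus strand), the 7-dehydrocholesterol reductase, was at 108, 107 and 99.5 CPM in the shScramble libraries, 206, 195 and 222 CPM with guide 2 and 94.8, 98.02 and 99.3 CPM in the libraries labelled guide 1. DHCR7 rose 1.98-fold with guide 2 (log2 fold change 0.99 ± 0.049 SE, adjusted p = 1.67e-15) and did not pass the test in the libraries labelled guide 1 (-0.11 ± 0.050). All 3 guide 2 libraries exceeded the other 6 for both enzymes.

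MSMO1, which starts removal of the methyl groups at carbon 4, was at 29.1, 26.5 and 28.2 CPM in the shScramble libraries, 55.2, 52.2 and 50.1 CPM with guide 2 and 24.3, 23.8 and 24.4 CPM in the libraries labelled guide 1. MSMO1 rose 1.88-fold with guide 2 (log2 fold change 0.91 ± 0.061 SE, adjusted p = 5.18e-13). CYP51A1, the lanosterol demethylase, was at 16.4, 17.3 and 16.4 CPM in the shScramble libraries, 30.6, 29.7 and 22.2 CPM with guide 2 and 16.4, 11.9 and 14.7 CPM in the libraries labelled guide 1. CYP51A1 rose 1.64-fold with guide 2 (log2 fold change 0.72 ± 0.12 SE, adjusted p = 6.76e-05), with guide 2 replicate 3 below the other guide 2 libraries but above all shScramble libraries. The standard error of CYP51A1 was the largest among the enzymes, and 78.8% of its exon bases are shared on the same strand with LRRD1, whose own mean count was 1.

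TM7SF2 (ENSG00000149809, chr11:65111845-65116384, plus strand), a sterol C14 reductase, was lowered in the libraries labelled guide 1 and not raised with guide 2. It was at 150.1, 155 and 142 CPM in the shScramble libraries, 149, 142 and 155 CPM with guide 2 and 72.6, 68.2 and 75.03 CPM in the libraries labelled guide 1. With guide 2 its values overlapped those of shScramble (log2 fold change -0.0023 ± 0.049, 95% interval -0.10 to 0.098), and in the libraries labelled guide 1 it fell 2.07-fold (log2 fold change -1.05 ± 0.050 SE, adjusted p = 1.08e-16), the single synthesis gene lowered in either comparison with shScramble. LBR, the lamin B receptor, carries the same reductase activity, and the TPM ratio of TM7SF2 to LBR was 1.45 ± 0.121 in shScramble, 1.13 ± 0.0386 with guide 2 and 0.671 ± 0.0226 in the libraries labelled guide 1. The ratio was thus lowest, and under 1, in the group where TM7SF2 was lowered. LBR itself was not called, at 0.35 ± 0.045 with guide 2 and 0.055 ± 0.045 in the libraries labelled guide 1.

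The other enzymes of this stretch were not called in any comparison. NSDHL, the C4 decarboxylase, was 0.52 ± 0.070 with guide 2 and 0.32 ± 0.069 in the libraries labelled guide 1. HSD17B7, the 3-keto reductase, was 0.019 ± 0.074 and -0.37 ± 0.075, and SC5D, the C5 desaturase, was 0.065 ± 0.053 and -0.36 ± 0.053 in the same order. HSD17B7 and SC5D overlapped shScramble with guide 2, as TM7SF2 did. HSD17B7 and FDPS have closely similar pseudogene copies in the genome, so their counts are uncertain. Summed over the 18 enzymes, synthesis transcripts ranged from 1006 to 1047 CPM in shScramble, from 1492 to 1567 CPM with guide 2 and from 911 to 954 CPM in the libraries labelled guide 1, with no overlap. Abundant genes weigh most in these sums. TM7SF2 averaged 149 CPM in shScramble and 71.95 CPM in the libraries labelled guide 1, where 2 enzymes were called raised and 1 lowered.

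**Figure D2:**
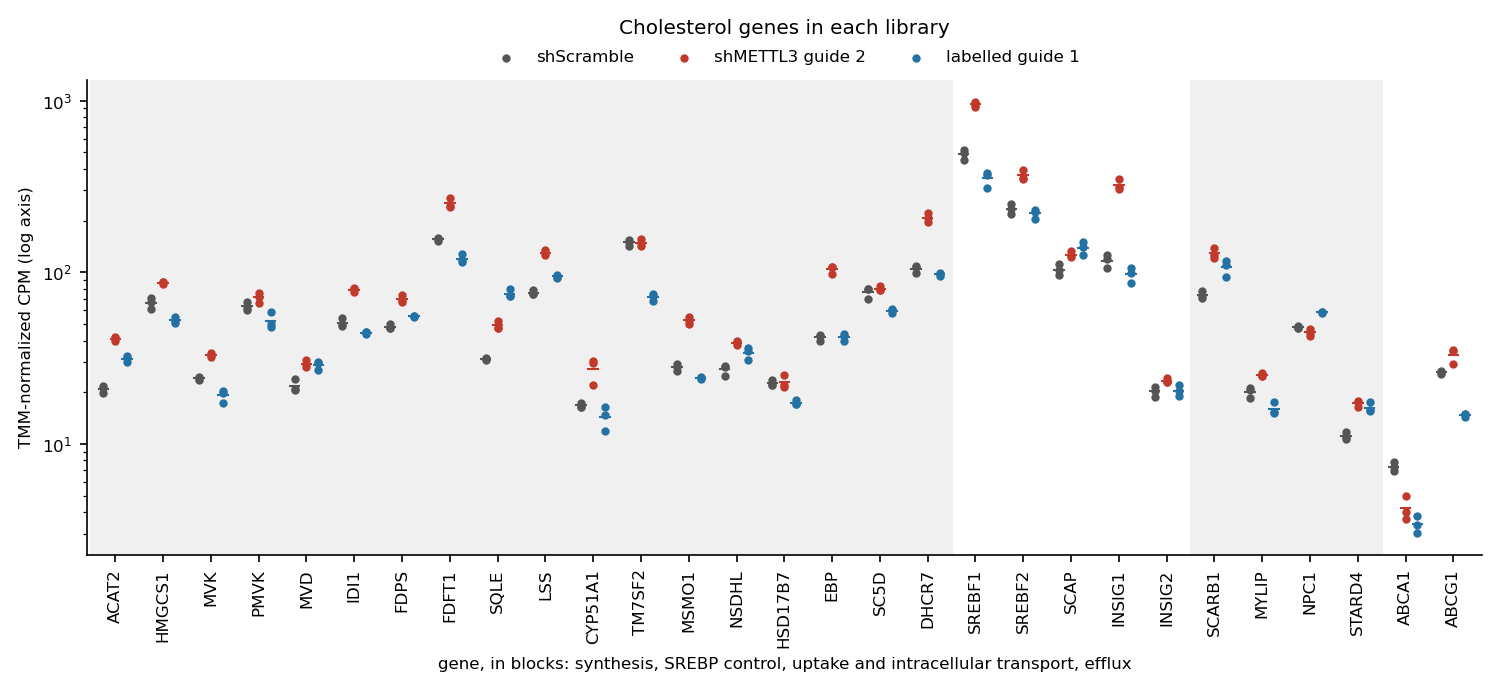
TMM-normalized CPM (log axis) of each of the 29 genes in each of the 9 libraries, in blocks by role, with a bar at the mean of 3. SREBF1 lies highest and ABCA1 lowest, SQLE is the enzyme with its labelled guide 1 points on top, and TM7SF2 is the enzyme whose labelled guide 1 points lie well under both other groups.

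Among the controllers, SREBF1, SREBF2 and INSIG1 were raised with guide 2 and none was called in the libraries labelled guide 1. INSIG1 (ENSG00000186480, chr7:155297776-155310235, plus strand) encodes the anchor that keeps SCAP in the endoplasmic reticulum when sterol is plentiful, and is itself an SREBP target. It was at 119, 126 and 106 CPM in the shScramble libraries, 304, 314 and 349 CPM with guide 2 and 86.9, 106 and 98.9 CPM in the libraries labelled guide 1. INSIG1 rose 2.75-fold with guide 2 (log2 fold change 1.46 ± 0.076 SE, adjusted p = 1.11e-09), the largest change of any member, and the direct difference from the libraries labelled guide 1 was 3.32-fold (log2 fold change 1.73 ± 0.077 SE, adjusted p = 6.29e-11). Its paralogue INSIG2, which is not under the same SREBP control, was 0.20 ± 0.075 with guide 2 and 0.020 ± 0.075 in the libraries labelled guide 1. The TPM ratio of INSIG1 to INSIG2 stood at 6.29 ± 0.785 in shScramble, 15 ± 0.622 with guide 2 and 5.15 ± 0.489 in the libraries labelled guide 1 (mean ± SD, n = 3 each).

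SREBF1 (ENSG00000072310, chr17:17810399-17837002, minus strand), whose SREBP-1 products drive mainly fatty acid genes, was at 517, 494 and 451 CPM in the shScramble libraries, 947, 918 and 982 CPM with guide 2 and 309, 379.8 and 370.3 CPM in the libraries labelled guide 1. SREBF1 rose 1.95-fold with guide 2 (log2 fold change 0.96 ± 0.066 SE, adjusted p = 2.63e-10), and in the libraries labelled guide 1 it was -0.47 ± 0.066, under the fold limit though past the p limit. SREBF2 (ENSG00000198911, chr22:41833079-41907308, plus strand), whose product drives mainly cholesterol genes, was at 250.3, 235 and 219.5 CPM in the shScramble libraries, 351, 352 and 396 CPM with guide 2 and 204, 231 and 225 CPM in the libraries labelled guide 1. SREBF2 rose 1.56-fold with guide 2 (log2 fold change 0.64 ± 0.057 SE, adjusted p = 8.23e-10), a call lost without guide 2 replicate 3 at a log2 fold change of 0.58, and it overlapped shScramble in the libraries labelled guide 1. All 3 guide 2 libraries were above the other 6 for both genes. The TPM ratio of SREBF1 to SREBF2 was 1.95 ± 0.0233 in shScramble, 2.44 ± 0.102 with guide 2 and 1.51 ± 0.0730 in the libraries labelled guide 1, so its 3 groups did not overlap. SCAP, the escort of both factors, was not called, at 0.28 ± 0.059 with guide 2 and 0.42 ± 0.059 in the libraries labelled guide 1. Of the exon bases of SREBF1, 6.92% are shared with RAI1 on the opposite strand.

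**Figure D3:**
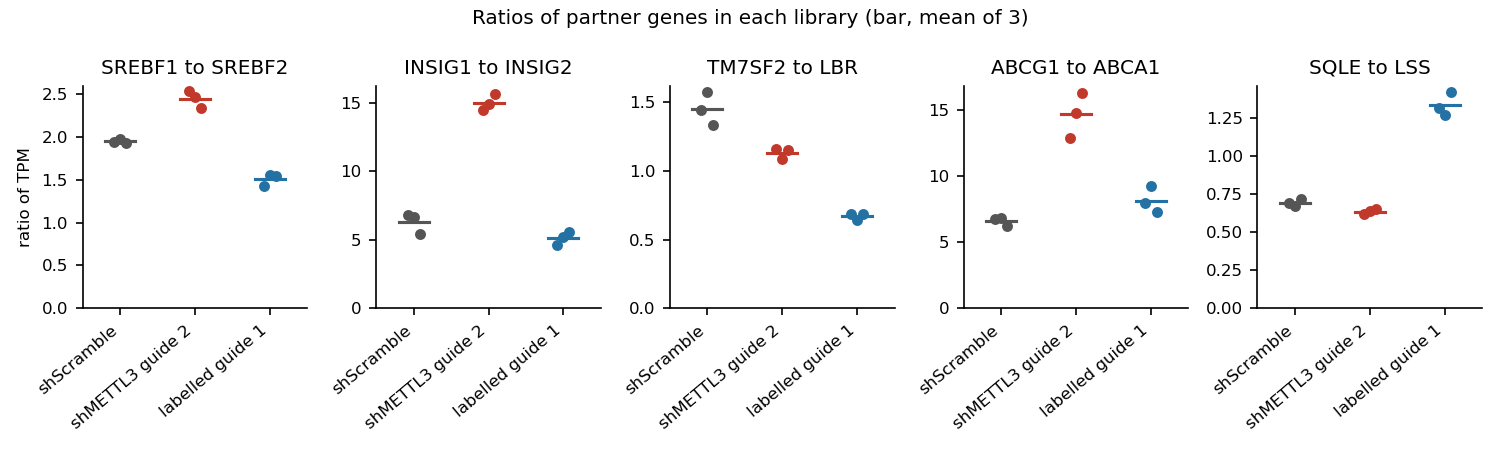
Ratio of TPM between 5 pairs of partner genes in each of the 9 libraries (points, bar at the mean of 3, axes from 0). INSIG1 to INSIG2 and ABCG1 to ABCA1 are highest with guide 2, SQLE to LSS is highest in the libraries labelled guide 1, and TM7SF2 to LBR is lowest there.

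For uptake and intracellular transport, SCARB1 and STARD4 were raised with guide 2. SCARB1, the scavenger receptor that takes cholesteryl ester from high-density lipoprotein, was at 78.1, 73.1 and 70.9 CPM in the shScramble libraries, 126, 121 and 139 CPM with guide 2 and 93.4, 117 and 109.6 CPM in the libraries labelled guide 1. SCARB1 rose 1.74-fold with guide 2 (log2 fold change 0.80 ± 0.072 SE, adjusted p = 6.81e-08). STARD4, a soluble carrier of sterol between membranes, was at 10.97, 10.7 and 11.7 CPM in the shScramble libraries, 17.5, 16.3 and 17.8 CPM with guide 2 and 15.4, 17.5 and 15.8 CPM in the libraries labelled guide 1. STARD4 rose 1.55-fold with guide 2 (log2 fold change 0.63 ± 0.086 SE, adjusted p = 3.97e-07), a call lost when genes under a mean of 1 CPM were left out (log2 fold change 0.58). Both genes were also above shScramble in the libraries labelled guide 1, by 0.52 ± 0.072 and 0.55 ± 0.085, values under the fold limit that passed it, at 0.61 and 0.59, without guide 1 replicate 1. For STARD4 the guide 2 and labelled guide 1 libraries overlapped.

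MYLIP, the ubiquitin ligase that marks lipoprotein receptors for degradation and is an LXR target, was at 21.1, 20.7 and 18.5 CPM in the shScramble libraries, 25.7, 24.9 and 24.8 CPM with guide 2 and 15.3, 17.5 and 15.2 CPM in the libraries labelled guide 1. MYLIP was not called against shScramble (0.32 ± 0.076 with guide 2 and -0.33 ± 0.078 in the libraries labelled guide 1) and was higher with guide 2 in the direct test (log2 fold change 0.65 ± 0.078 SE, adjusted p = 1.75e-08). NPC1, which moves cholesterol out of lysosomes, was -0.10 ± 0.054 with guide 2 and 0.29 ± 0.052 in the libraries labelled guide 1 and was not called.

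The exporters parted with guide 2. ABCA1 (ENSG00000165029, chr9:104781002-104928237, minus strand), which loads cholesterol and phospholipid onto lipid-poor apolipoprotein, was at 7.34, 6.91 and 7.84 CPM in the shScramble libraries, 4.99, 3.67 and 4.03 CPM with guide 2 and 3.37, 3.02 and 3.81 CPM in the libraries labelled guide 1. ABCA1 fell 1.74-fold with guide 2 (log2 fold change -0.80 ± 0.14 SE, adjusted p = 1.74e-05) and 2.15-fold in the libraries labelled guide 1 (log2 fold change -1.11 ± 0.14 SE, adjusted p = 6.33e-08), from counts of 84 to 227 per library. The guide 2 call of ABCA1 was lost when tested against 1.5-fold. Both hairpin groups lay under shScramble and overlapped each other. ABCG1 (ENSG00000160179, chr21:42199689-42297244, plus strand), which exports cholesterol to mature lipoprotein particles, was at 26.6, 25.4 and 26.1 CPM in the shScramble libraries, 34.6, 29.2 and 35.4 CPM with guide 2 and 14.4, 15.01 and 14.9 CPM in the libraries labelled guide 1. ABCG1 fell 1.76-fold in the libraries labelled guide 1 (log2 fold change -0.82 ± 0.076 SE, adjusted p = 2.04e-10) but was above shScramble with guide 2, by 0.34 ± 0.072 and under the fold limit. Its 3 groups did not overlap. The TPM ratio of ABCG1 to ABCA1 was 6.57 ± 0.349 in shScramble, 14.6 ± 1.70 with guide 2 and 8.12 ± 0.999 in the libraries labelled guide 1. In bulk RNA, fewer cells of a type and less RNA per cell cannot be told apart, which holds for these 2 genes as for the rest.

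Per unit of length, the pathway spanned from SREBF1 at 205 ± 13.7 TPM to ABCA1 at 2.20 ± 0.166 TPM in shScramble (mean ± SD, n = 3). PMVK at 167 ± 7.63 TPM and TM7SF2 at 148 ± 4.95 TPM came next, each apart from its neighbours in every library. INSIG1, SREBF2 and FDFT1 followed at 108 ± 7.93, 105 ± 6.87 and 101 ± 1.31 TPM, and these 3 overlapped in turn. IDI1, HMGCS1, SC5D, NSDHL and FDPS also formed an overlapping run, between 43.6 and 48.0 TPM. The lowest enzymes by these counts were CYP51A1 at 13.9 ± 0.252 TPM and MVK at 12.7 ± 0.415 TPM, with STARD4 at 6.61 ± 0.373 TPM and ABCA1 beneath all of them. For CYP51A1, 78.8% of the exon bases are shared with LRRD1 on the same strand. How reads on shared bases were counted was not given, so the place of CYP51A1 in this order is uncertain. The same holds for ACAT2, with 43.0% of its exon bases shared with a gene on the opposite strand. The genes raised with guide 2 thus ranged from the most abundant member to STARD4.

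The TCACNCCAC core was found, on either strand, in 1 of the 24 member windows and in 1.12% of all 34796 RefSeq windows. The match in SREBF2 reads TCACCCCAC on the strand of the gene, from 133 to 125 bases before the start, and is followed by a CCAAT match on the opposite strand. CCAAT was found in 16 of the 24 windows (66.7%) against 34.6% of all windows. Member windows thus held this short word more often, though many other windows held it too. The difference was not tested. Among members with a window, 7 of the 10 raised with guide 2 and 9 of the 13 not called held CCAAT, and the window of ABCA1 did not. CCAAT was thus found among raised and uncalled genes alike. EBP held 3 matches, DHCR7 held 2, and INSIG1 and TM7SF2 held 1 each, as the capitals above show. These windows were chosen from those that hold CCAAT, so its presence in them is not a result. ACAT2, FDFT1, SQLE, SCARB1 and ABCG1 have no window here.

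**Figure D4:**
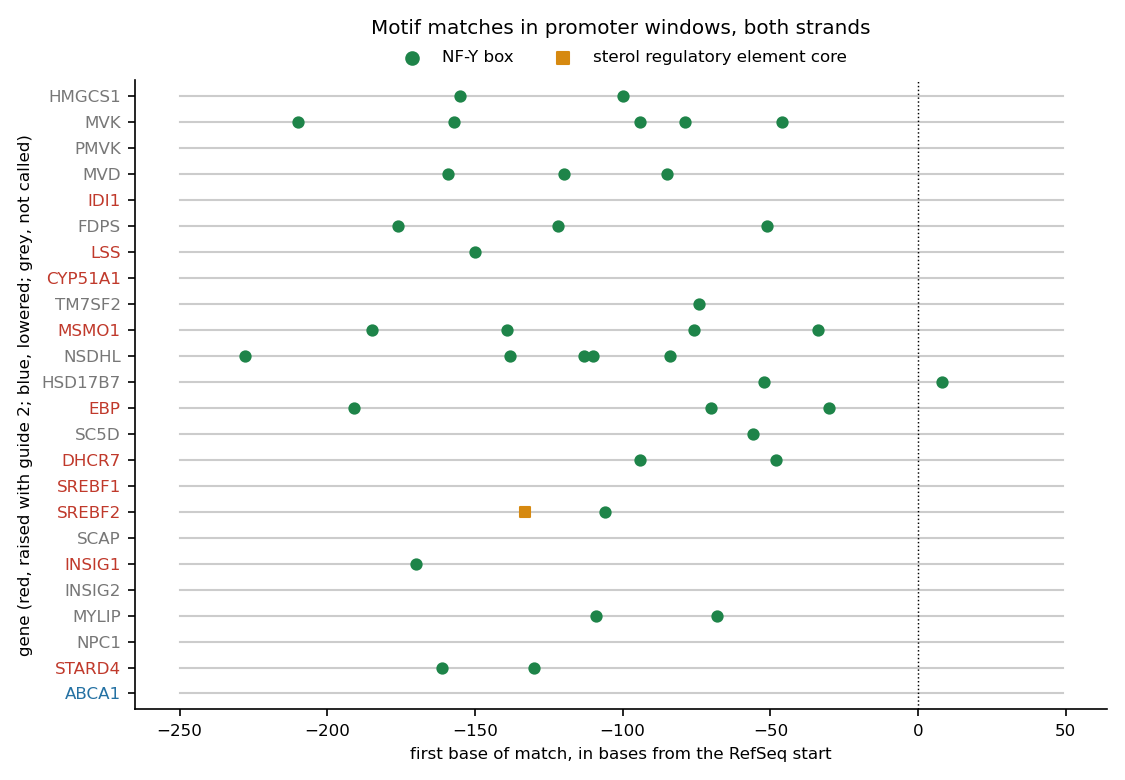
Position of each motif match, in bases from the RefSeq start, for the 24 genes with a promoter window (circles mark the NF-Y box, a square the sterol regulatory element core, and gene names are coloured by their call with guide 2). The square is in SREBF2 alone, and circles appear in 16 windows of both raised and uncalled genes.

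The fatty acid arm of the SREBP program, a list of 12 genes, had 6 raised with guide 2 and none lowered, with a median log2 fold change of 0.66, and in the libraries labelled guide 1 it had 0 raised and 1 lowered, the acetyl-CoA synthetase ACSS2 (-0.59 ± 0.055, named after its value was seen). The 3 largest were ELOVL6 (1.87 ± 0.073), which lengthens palmitate, FADS2 (1.80 ± 0.057), a desaturase, and SCD (1.34 ± 0.13), which makes oleate. In the direct test 10 of the 12 were higher with guide 2. These counts, and those of the lists that follow, stand beside 8.85% raised and 20.4% lowered of all genes tested with guide 2, 21.2% and 16.5% in the libraries labelled guide 1, and 19.1% higher with guide 2 in the direct test. The other sterol enzymes and their partners gave 2 of 5 tested raised with guide 2 and none lowered, IDI2 being too low to test. TMEM97, an SREBP-responsive partner of NPC1, rose 2.71-fold from 46.98 ± 4.06 to 128 ± 1.01 CPM. None of 11 genes of SREBP processing and sterol sensing was called in either direction with guide 2, beside 8.85% raised and 20.4% lowered of all genes tested. By the p limit alone 7 passed, 5 higher and 2 lower, beside 30.0% higher and 31.7% lower of all genes tested. The largest value was 0.47 ± 0.044 for RXRA, the partner of LXR. In the libraries labelled guide 1, 1 of these 11 was raised and 1 lowered, ERLIN1 (0.83 ± 0.056) and NR1H2 (-0.59 ± 0.051), both named after their values were seen.

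A list of 7 other LXR targets and sterol transporters held calls in both directions. With guide 2, 1 of the 7 was raised and 2 were lowered, and in the libraries labelled guide 1 the counts were 2 and 2, the lowered genes there being SMPDL3A (-0.64 ± 0.12) and ABCA7 (-0.62 ± 0.062), named after their values were seen. PLTP, the phospholipid transfer protein, was at 2.502 ± 0.573 CPM in shScramble, 0.7098 ± 0.0962 CPM with guide 2 and 45.9 ± 4.76 CPM in the libraries labelled guide 1 (log2 fold changes -1.78 ± 0.26 and 4.22 ± 0.13). LPCAT3, which remodels phospholipids, rose with guide 2 (0.72 ± 0.064). PLTP was thus lowered with guide 2 and raised in the libraries labelled guide 1, a pattern that no member showed. Among 12 genes of lysosomal transport and storage, 2 were raised and 2 were lowered with guide 2, near the shares of all genes tested (8.85% and 20.4%). NCEH1, which hydrolyses cholesteryl ester, rose 2.56-fold, as did TSPO (0.77 ± 0.050, named after its value was seen) to a smaller degree, and GRAMD1B, which carries sterol from the plasma membrane, went from 2.22 ± 0.174 to 0.243 ± 0.0278 CPM and to 6.502 ± 0.616 CPM in the libraries labelled guide 1. CAV1, the caveolar coat protein, was low throughout, at 0.521 ± 0.158, 0.0978 ± 0.0584 and 2.800 ± 0.1201 CPM in the same order.

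**Figure D5:**
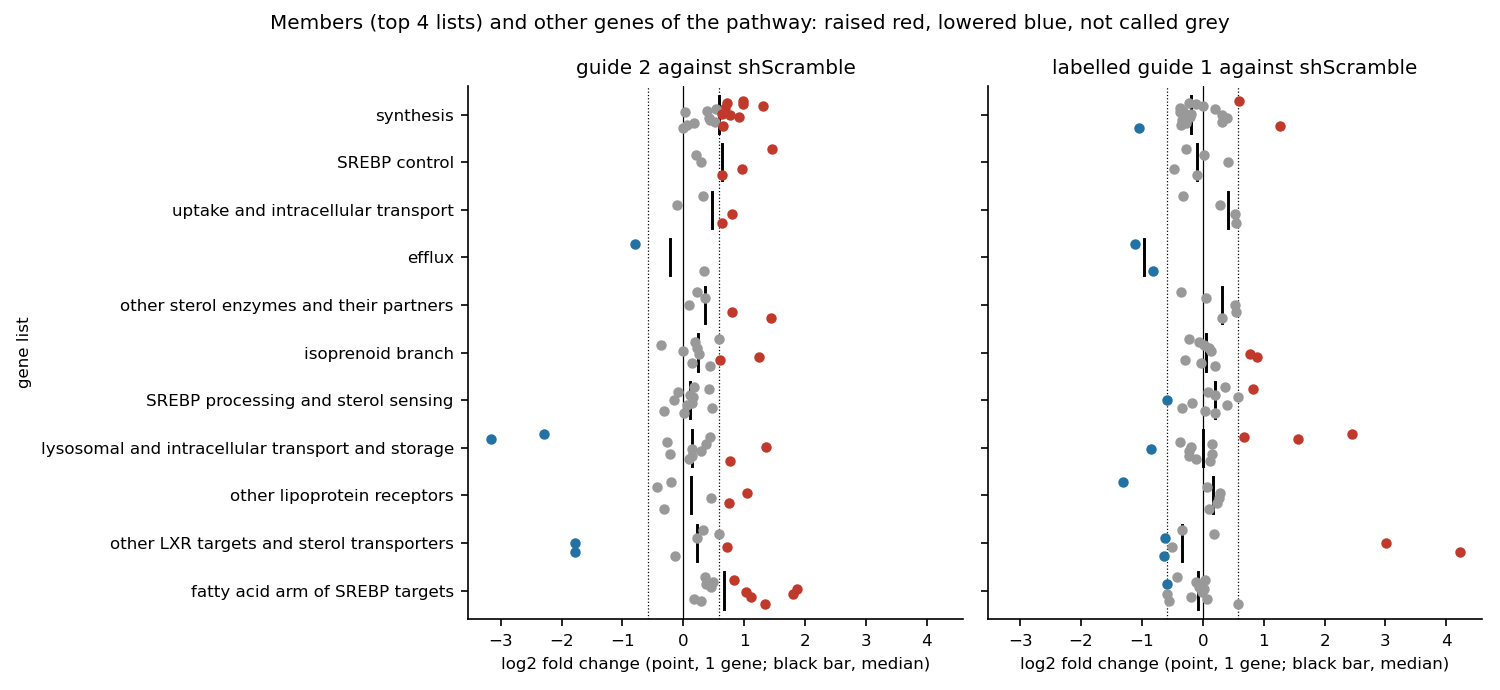
Log2 fold change of each tested gene (points, red raised, blue lowered, grey not called) against shScramble for the 4 blocks of members and 7 further lists, with a black bar at each list's median. With guide 2 the medians of synthesis (0.59), SREBP control (0.64) and the fatty acid arm (0.66) lie near the upper 1.5-fold line, and in the libraries labelled guide 1 those 3 medians lie under 0.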

How the data were processed

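Paired-end RNA-seq libraries of LNCaP:C4-2 cells (3 per group) were trimmed, aligned to GRCh38 with STAR and assigned to Ensembl genes with featureCounts by the study, and the authors deposited raw read counts per gene for each library (trimming by Trim Galore and cutadapt, per the labels' tool list). Strand setting and tool versions were not given in the sources used here. No row lacked a gene ID, and 93.21% of IDs had a symbol in the reference table.

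Counts were tested as deposited with edgeR 4.0.16 (R 4.3.3): filterByExpr (minimum count 10, minimum total 15), TMM, robust quasi-likelihood fit over all 9 libraries with a coefficient per group, two-sided test, Benjamini-Hochberg adjustment over all 19278 genes tested. A gene was called at an adjusted p under 0.05 and at least 1.5-fold, the study's thresholds. CPM and TPM were computed from the counts and the deposited exon lengths. DESeq2 1.42.0, other scalings, other filters, 6 libraries alone, a replicate block, leaving out each library, and other call rules were alternatives. The procedure was tested on simulated data. Replicates correlated at r = 0.991 to 0.994 (log2 CPM) and differed beyond counting noise, so no library was counted as a duplicate.

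Members and lists were chosen with earlier results of these data known. All members are reported, those called in any comparison library by library, and in each other list up to 3 called genes with the largest absolute guide 2 change (where none was called, the largest). Printed promoters other than SREBF2 were added later, from members whose window holds CCAAT. Some genes of the pathway and of the other lists are not reported here.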

Additional observations from a re-analysis of the deposited data

Results flagged for a closer look

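The effects of the 2 hairpin groups on 15 of the 29 genes differed from each other in the direct test of guide 2 against the libraries labelled guide 1 (edgeR quasi-likelihood, log2 difference ± SE). Of these, 14 were higher with guide 2 and 1 was lower, where 19.1% and 28.2% of all genes tested were higher and lower, so the count of both directions together is near that of all genes. Among the controllers the difference was 1.73 ± 0.077 for INSIG1, 1.43 ± 0.066 for SREBF1 and 0.73 ± 0.057 for SREBF2. For enzymes it was 1.31 ± 0.055 for EBP, 1.12 ± 0.061 for MSMO1, 1.09 ± 0.050 for DHCR7, 1.07 ± 0.050 for FDFT1, 1.05 ± 0.050 for TM7SF2, 0.94 ± 0.12 for CYP51A1, 0.83 ± 0.052 for IDI1, 0.78 ± 0.071 for MVK and 0.73 ± 0.053 for HMGCS1. The exporter ABCG1 and the ligase MYLIP differed by 1.16 ± 0.076 and 0.65 ± 0.078. SQLE was the single gene on the other side, at -0.61 ± 0.055. METTL3 itself differed by -0.86 ± 0.069 in this test.

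These 15 are the members called in that test, and adjusted p-values ranged from 3.65e-18 for EBP to 2.35e-06 for CYP51A1. The 2 groups also differed in luminal markers, and not in 1 direction. Of 7 tested, 5 were higher with guide 2, from 0.67 ± 0.064 for KRT18 to 1.52 ± 0.048 for HOXB13, KLK3 was lower (-0.97 ± 0.10), and KLK2 was not called. The part of these markers in the 15 differences was not tested.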

How the results depend on the processing

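The number of members called was 15 with guide 2, 5 in the libraries labelled guide 1 and 15 in the direct test. With adjusted p alone the counts became 25, 24 and 26. With guide 2 the count became 9 with scaling by library size alone (8 raised, 1 lowered) and 9 when tested against 1.5-fold (9 raised). Library size alone lowered the median of all genes with guide 2 from -0.04 to -0.19, and IDI1, FDFT1, SQLE, CYP51A1, SREBF2 and STARD4 (0.48 to 0.57) were no longer called, nor was MYLIP in the direct test (0.51) or ACAT2 in the libraries labelled guide 1 (0.58). Leaving out each library gave 14 to 15, 4 to 7 and 14 to 15 calls. With the replicate block the counts were 15, 5 and 15. Same-numbered libraries did not deviate together (r from -0.098 to 0.053 over 9 pairs), so the numbers were not taken as pairs. Under the other alternatives the counts stayed within 1.5 times.

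Values near 0 changed sign. TM7SF2 with guide 2 was 0.022 with DESeq2, 0.0075 with DESeq2 size factors, 0.019 without a filter, and -0.036 to 0.031 without each library. HSD17B7 with guide 2 was -0.13 with library size alone, -0.030 at a minimum mean of 1 CPM and -0.047 to 0.062 without each library, and SC5D was -0.085 with library size alone. In the libraries labelled guide 1, EBP was -0.011 with library size alone, -0.0030 at the 1 CPM minimum and -0.039 to 0.041 without each library, and INSIG2 was -0.040 to 0.070 without each library. In the direct test MVD was -0.11 with library size alone, -0.015 at the 1 CPM minimum and -0.0061 to 0.066 without each library, and STARD4 was -0.057 with library size alone. None of these genes was called in the comparison named. Of the values of single genes under the alternatives, 1343 kept direction and call, 27 changed sign, 20 lost and 2 gained the call. Where no construction of the setting shows it, the cause was not tested. ABCA1, at 84 to 227 counts, had the widest error of the members, and 3 libraries a group limit the precision of all of them.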

Other observations

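Branches that leave or feed the pathway were measured beside it. Of 10 genes of the isoprenoid branch, 2 were raised with guide 2 and none was lowered (median log2 fold change 0.24), beside 8.85% and 20.4% of all genes tested. Both were subunits of the enzyme that makes the side chain of coenzyme Q: PDSS1 at 1.25 ± 0.079 and PDSS2 at 0.60 ± 0.056. PDSS1 was also raised in the libraries labelled guide 1 (0.89 ± 0.079), where PDSS2 was -0.30 ± 0.057. Of 6 other lipoprotein receptors, 2 were raised with guide 2 and none was lowered, beside the same shares of all genes: LRP8, from 20.3 ± 0.748 to 41.7 ± 1.12 CPM (1.04 ± 0.071), and SORL1, a sorting receptor, from 20.2 ± 1.35 to 33.97 ± 0.969 CPM (0.76 ± 0.073), as mean ± SD of 3 libraries. In the libraries labelled guide 1 neither was called, and 1 of the 6 was lowered, CD36, named after its value was seen, which averaged under 1 CPM in every group.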
